A study of Mus musculus with 15 samples.

Results

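The core loop of the circadian clock is described here through 10 genes, all of which were found among the 55357 gene identifiers of the count tables: the activators Arntl (also called Bmal1), Clock and Npas2, the repressors Per1, Per2, Per3, Cry1 and Cry2, and the nuclear receptors Nr1d1 and Nr1d2. The members were listed by name as parts of the loop, with earlier results of these data already known. Shares of members set beside shares of all genes are therefore descriptions. All 10 passed the filter on low counts in the test over 15770 genes.

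In the loop, ARNTL pairs with CLOCK or NPAS2 and switches on the Per, Cry and Nr1d genes, whose proteins then act back on that pair: PER and CRY proteins block it, and the NR1D receptors silence Arntl. Transcripts of the activator Arntl and of the Per and Nr1d genes therefore peak at different times of day in most tissues, the cornea included, where the clock is known for timing cell division in the epithelium. Retinoic acid-related orphan receptors and the NR1D receptors compete for the same DNA element, and the factors DBP, TEF and HLF bind a further element, the D-box.

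RNA came from corneas of OPA1+/+ mice and of OPA1+/- mice, by this notation heterozygous for Opa1, the gene for a fusion protein of the inner mitochondrial membrane. At 3 months each genotype had 4 libraries, and at 6 months OPA1+/+ had 3 and OPA1+/- had 4. The labels name no treatment, strain, sex or nature of the Opa1 allele. They also give no time of day of dissection, no batch and no number of animals per library. P-values therefore measure the spread between libraries, which may in part be technical. The part of time of day in differences between groups was not tested, here or in any result below. Levels are given as CPM, counts scaled to a library total of 1000000 after TMM adjustment, or as raw CPM without that adjustment. RNA of both sexes was present in every library: Xist was at 1433.3 to 1969.5 raw CPM, and the sum of 4 genes of the Y chromosome at 125.7 to 172.2 raw CPM.

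Libraries held 11673240 to 18194946 counts. The corneal keratin Krt12 was at 26400 to 32900 raw CPM in all 15. The sum of 8 genes listed for conjunctiva ranged from 368 to 742 raw CPM. In OPA1+/+ at 6 months this sum was 719 raw CPM in replicate 1, and 406 and 436 raw CPM in replicates 2 and 3. The part of conjunctival RNA in the results was not tested. Opa1 was lower in OPA1+/- at both ages (log2 fold change -0.41 ± 0.06 (SE), adjusted p = 0.0192 at 3 months, and -0.53 ± 0.06, adjusted p = 0.000622 at 6 months, edgeR). The call at 3 months was lost in 3 of 6 other settings and in 4 of 15 fits without 1 library (adjusted p up to 0.141). A pair of libraries stood apart in 13 photoreceptor genes: OPA1+/- replicate 4 at 3 months (177 raw CPM summed) and OPA1+/+ replicate 1 at 6 months (175 raw CPM), against 11.4 to 28.9 raw CPM in the others. The former also held 115 raw CPM of 10 lens genes. Counts of members called are given below with and without this pair where they differ. Shares of all genes and overlaps between libraries include the pair. The part of photoreceptor or lens RNA in the results was otherwise not tested.

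Promoter sequences are shown for 3 members: Per3 and Nr1d2, the members that passed a test, and Arntl, the member with the widest range. RefSeq (GRCm38.p6) gave windows from 250 bases before to 50 after a gene start for 9 of the 10 members. Capitals mark exact matches, on either strand, to a set of letter patterns (where N is any base). These were the E-box CACGTG, the pattern TNGGTCA, the D-box TTATGNAA or TTACGTAA, and the cAMP response element TGACGTCA. TNGGTCA is a loose form of the core of the element of retinoic acid-related orphan receptors and NR1D proteins. It allows any base before GGTCA, so a match need not be such an element. Each window is written 5′ to 3′ on the strand of its gene: Per3 from chr4:151044616-151044915 (minus strand), Nr1d2 from chr14:18239057-18239356 (minus strand), and Arntl from chr7:113207261-113207560 (plus strand), the second of 2 overlapping windows.
Per3: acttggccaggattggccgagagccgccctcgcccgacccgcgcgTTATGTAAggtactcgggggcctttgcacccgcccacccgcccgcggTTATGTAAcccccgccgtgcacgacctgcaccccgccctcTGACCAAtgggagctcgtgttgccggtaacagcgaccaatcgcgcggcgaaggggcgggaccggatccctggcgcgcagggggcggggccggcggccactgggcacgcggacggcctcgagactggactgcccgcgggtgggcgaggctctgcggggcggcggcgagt
Nr1d2: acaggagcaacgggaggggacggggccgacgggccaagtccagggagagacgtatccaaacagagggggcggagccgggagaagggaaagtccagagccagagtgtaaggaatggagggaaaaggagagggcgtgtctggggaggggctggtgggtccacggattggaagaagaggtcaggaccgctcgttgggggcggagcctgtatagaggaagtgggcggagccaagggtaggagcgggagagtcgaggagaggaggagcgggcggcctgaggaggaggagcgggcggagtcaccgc
Arntl: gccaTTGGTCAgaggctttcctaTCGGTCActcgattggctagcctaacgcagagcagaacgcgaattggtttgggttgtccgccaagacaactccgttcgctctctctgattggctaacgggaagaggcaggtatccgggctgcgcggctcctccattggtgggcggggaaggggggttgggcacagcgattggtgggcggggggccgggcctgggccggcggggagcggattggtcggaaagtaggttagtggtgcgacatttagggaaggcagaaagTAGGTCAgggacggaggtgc
Per3 had 2 matches to the D-box TTATGNAA, at 205 and 158 bases before the gene start, and 1 match to TNGGTCA on the opposite strand. A window with at least 2 such D-boxes was found among 0.161% of all 32851 promoter windows, and with at least 1 in 3.38%. The printed window of Arntl had 3 matches to TNGGTCA, a motif found at least 1 time in 11% of windows and at least 2 times in 0.755%. The first window of Arntl held TTGGTCA and TCGGTCA but not TAGGTCA. The window of Nr1d2 held none of these letters. Elsewhere in the loop, Per1 held CACGTG and TTATGCAA, Cry1 held CACGTG, and Cry2 held 1 match to TNGGTCA, while CACGTG occurs in 7.15% of all windows. The windows of Clock, Npas2 and Nr1d1 held no match. TGACGTCA (1.79% of windows) and TTACGTAA (0.119%) matched none of the 13 member windows. Matches are descriptions of letters, and binding was not measured.

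Levels of different genes were compared per kilobase of exon. Nr1d1 had the highest level, at 72.8 ± 14.6 CPM per kb (SD, n = 15), and lay above Per3 in 15 of 15 libraries. Per3 (32 ± 3.44 CPM per kb) and Nr1d2 (31.6 ± 4.14) followed and changed places between libraries. Per1 (20.3 ± 5.17) and Clock (20 ± 2.56) did not differ beyond their spread, with Per1 above Clock in 7 of 15 libraries, and neither did Cry2 (13.4 ± 1.56) and Per2 (12.3 ± 2.81). Cry1 (4.01 ± 0.659), Arntl (3.29 ± 1.78) and Npas2 (1.88 ± 0.542) were the lowest. Exon length is the union over annotated transcripts, so a gene with long rarely used exons has a lower value on this scale.

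**Figure D1:**
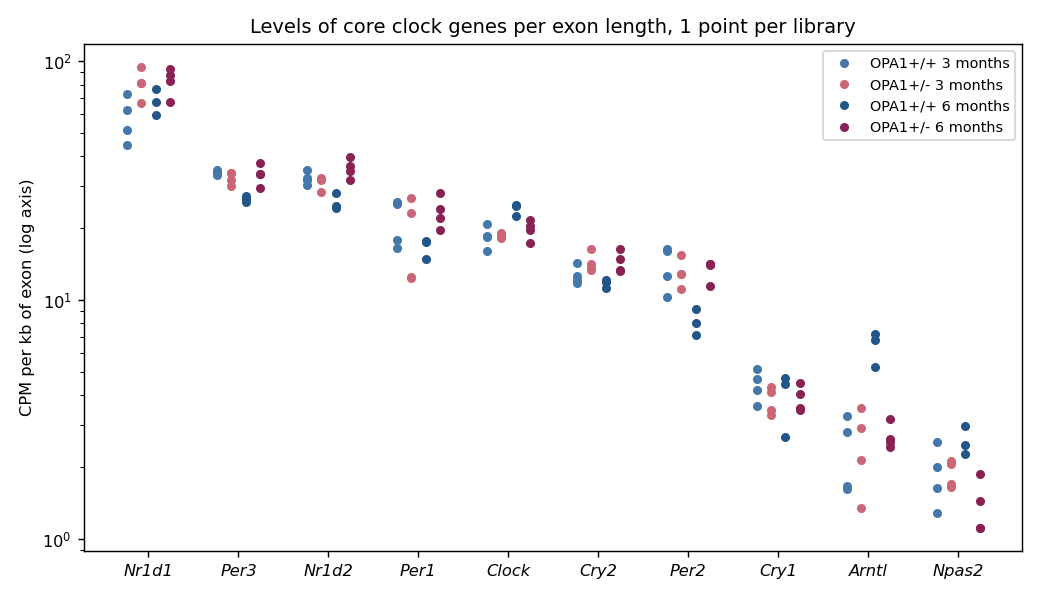
Level of each core clock gene in CPM per kb of exon (log axis), 1 point per library, coloured by group. Nr1d1 lies above every other member in every library, Per3 and Nr1d2 overlap, and Arntl reaches its highest points in the OPA1+/+ libraries of 6 months.

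Depth differed between members. Npas2 rested on 68 to 189 counts per library, where counting error alone is 12.1% to 7.27%, Cry1 on 119 to 250 counts and Arntl on 133 to 699. The other 7 members had at least 553 counts in each library, and Per3 had 3311 to 5592 (counting error 1.74% to 1.34%). Counting error covers sampling of reads only.

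Several members varied more between libraries of 1 group than other genes of like level. The within-group SD of Arntl on the log2 scale was 0.435, higher than that of 98.8% of the 2294 genes whose mean lay within 0.5 of it on the log2 scale. For Per1 it was 0.374 (higher than 99.0% of 1590 such genes), for Nr1d1 0.235 (97.1% of 791) and for Per2 0.221 (97.0% of 1975). Per3, with a within-group SD of 0.089, stood above 71.1% of 519.

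The first question was how the loop stood in each library. Arntl, the obligate partner of CLOCK and NPAS2, was at 24.6, 21, 12.6 and 12.1 CPM in OPA1+/+ replicates 1 to 4 at 3 months. It was at 16, 10.2, 26.6 and 22 CPM in OPA1+/- replicates 1 to 4 of that age. These 2 groups covered nearly the same range. At 6 months Arntl was at 39.4, 51.3 and 54.3 CPM in OPA1+/+ replicates 1 to 3. In OPA1+/- replicates 1 to 4 it was at 23.8, 19.7, 18.2 and 19.1 CPM. All 3 OPA1+/+ libraries of 6 months thus lay above the other 12. Whether this reflects more cells with the transcript or more of it per cell cannot be told apart in bulk RNA, here or in any result below.

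Clock, the usual DNA-binding partner of ARNTL, was at 286, 255, 252 and 219 CPM in OPA1+/+ and at 256, 250, 262 and 258 CPM in OPA1+/- at 3 months. At 6 months it was at 307, 343 and 340 CPM in OPA1+/+ and at 296, 280, 238 and 269 CPM in OPA1+/-. As for Arntl, the 3 OPA1+/+ libraries of 6 months were the highest of the 15, by a smaller margin. Npas2, the paralogue that can stand in for CLOCK, was at 9.52, 7.83, 12.1 and 6.12 CPM in OPA1+/+ and at 9.88, 10.2, 8.13 and 7.84 CPM in OPA1+/- at 3 months. At 6 months it was at 14.2, 10.9 and 11.9 CPM in OPA1+/+ and at 6.92, 8.98, 5.31 and 5.31 CPM in OPA1+/-, so those groups did not overlap, while OPA1+/+ replicate 3 of 3 months reached the level of 6 months.

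Among the repressors, Per2 was lowest in the group where Arntl was highest. It was at 60.3, 73.6, 93.6 and 95.4 CPM in OPA1+/+ and at 74.7, 90.1, 64.9 and 75.3 CPM in OPA1+/- at 3 months. The 6-month values were 41.6, 46.7 and 53.6 CPM in OPA1+/+ and 67.3, 82.7, 82.1 and 82.5 CPM in OPA1+/-. Within OPA1+/+ at 3 months, replicates 3 and 4 had both the lowest Arntl and the highest Per2, and within OPA1+/- at 3 months the same held for replicate 2, with the reverse in replicate 3. Within OPA1+/+ at 6 months the order was the other way, and replicate 1 had the lowest Arntl of its group and the lowest Per2 of all 15 libraries. Per3, a PER paralogue, was at 321, 335, 325 and 329 CPM in OPA1+/+ and at 327, 329, 289 and 306 CPM in OPA1+/- at 3 months. At 6 months it was at 254, 247 and 262 CPM in OPA1+/+, the lowest 3 of the 15 values, and at 283, 323, 326 and 359 CPM in OPA1+/-.

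Per1, which also responds acutely to glucocorticoids and cAMP, split within groups. It was at 93.4, 100, 143 and 145 CPM in OPA1+/+ and at 70.1, 131, 70.3 and 151 CPM in OPA1+/- at 3 months. At 6 months it was at 99.4, 83.7 and 98.8 CPM in OPA1+/+ and at 111, 159, 124 and 136 CPM in OPA1+/-. The 3-month libraries of OPA1+/- fell into a low and a high pair, and the value of 151 CPM belongs to the library with photoreceptor and lens transcripts.

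The cryptochromes, partners of PER in the repressor complex, behaved unlike each other. Cry2 was at 74.5 to 90.7 CPM in OPA1+/+ and at 84.1 to 103 CPM in OPA1+/- at 3 months, and at 70.9 to 76.3 and 83.6 to 103 CPM at 6 months. Cry1 was at 12.1 to 17.2 and 11 to 14.4 CPM at 3 months, and at 8.95 to 15.7 and 11.6 to 15 CPM at 6 months, so its groups overlapped throughout. Its lowest value, 8.95 CPM, was in OPA1+/+ replicate 1 of 6 months, the other library with photoreceptor transcripts.

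The NR1D receptors, which repress Arntl, also differed in pattern. Nr1d2 was at 172, 176, 164 and 189 CPM in OPA1+/+ and at 176, 174, 153 and 172 CPM in OPA1+/- at 3 months. At 6 months it was at 151, 132 and 134 CPM in OPA1+/+ and at 172, 188, 198 and 215 CPM in OPA1+/-, so that the OPA1+/+ libraries of 6 months were the 3 lowest of the 15. Nr1d1 was at 193, 225, 159 and 137 CPM in OPA1+/+ and at 250, 206, 291 and 250 CPM in OPA1+/- at 3 months. At 6 months it was at 236, 183 and 209 CPM in OPA1+/+ and at 255, 209, 287 and 270 CPM in OPA1+/-. Its OPA1+/+ libraries of 6 months lay in the middle of its range, and its lowest values were in OPA1+/+ replicates 3 and 4 of 3 months. Nr1d1 overlaps the 3′ part of Thra on the other strand, and the counts were strand-specific.

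**Figure D2:**
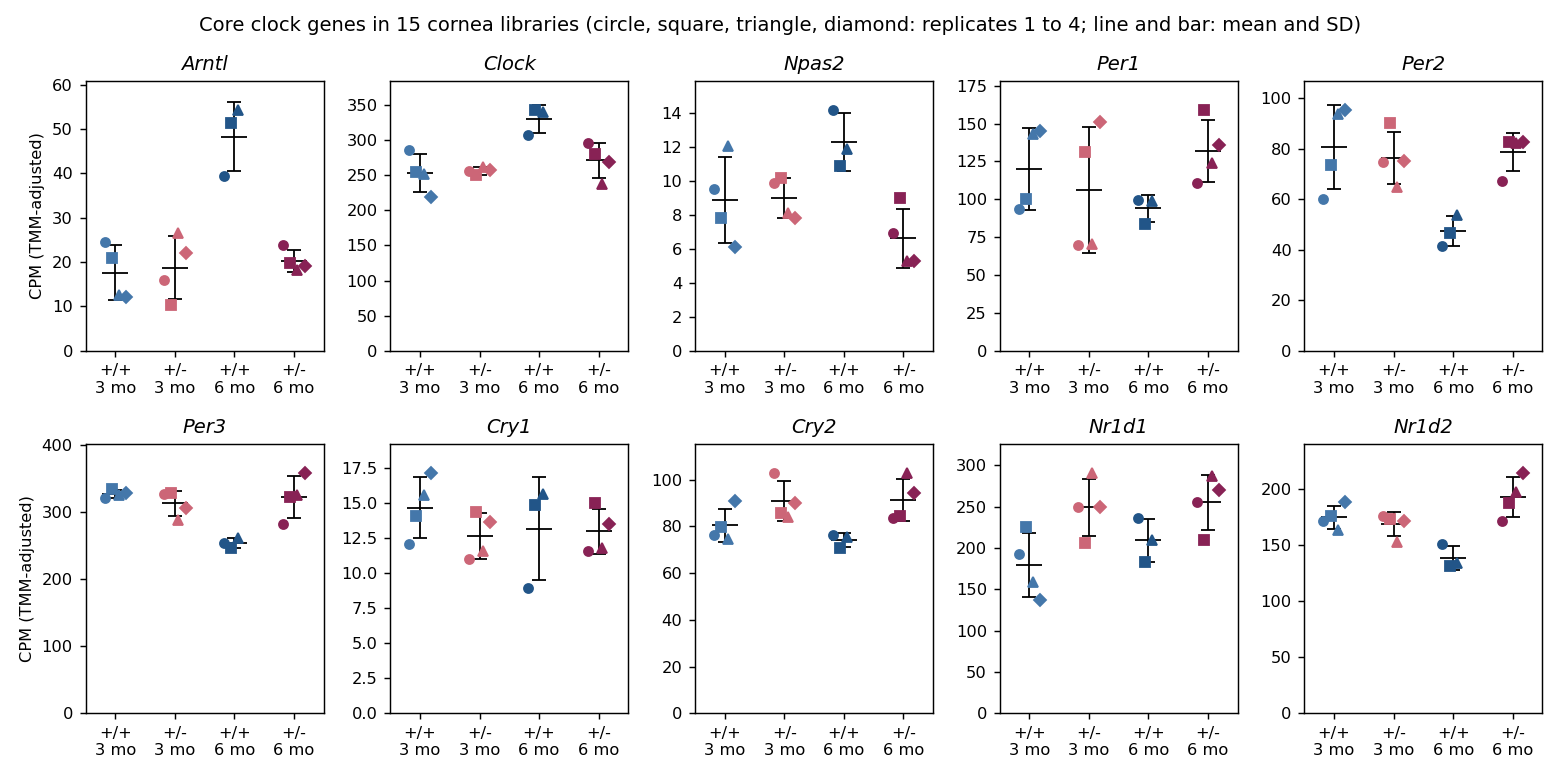
CPM of the 10 core clock genes in each of 15 libraries, by genotype and age, with 1 marker shape per replicate number and the mean and SD of each group. In OPA1+/+ at 6 months Arntl (39.4 to 54.3 CPM) and Clock (307 to 343 CPM) have their highest values, and Per2, Per3 and Nr1d2 their lowest.

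To set activators against repressors, the mean log2 CPM of the 3 activators and of the 7 repressors was taken in each library, minus the mean over all 15 libraries. These scores are descriptions and were not tested. The activator score was 0.573, 0.625 and 0.690 in OPA1+/+ replicates 1 to 3 of 6 months, and between -0.552 and 0.122 in the other 12 libraries. In those 3 libraries the repressor score was -0.277, -0.286 and -0.159, the 3 lowest values, against -0.120 to 0.227 elsewhere. Activators minus repressors came to 0.87 ± 0.04 (SD, n = 3) in OPA1+/+ at 6 months. It was -0.32 ± 0.27 (n = 4) in OPA1+/- at 6 months, -0.19 ± 0.38 (n = 4) in OPA1+/+ at 3 months and -0.15 ± 0.25 (n = 4) in OPA1+/- at 3 months. These last 3 groups overlapped. The PER and CRY part of the repressor score was -0.376 to -0.140 in OPA1+/+ at 6 months and -0.076 to 0.205 in OPA1+/- of that age, while the NR1D part was -0.313 to -0.031 and 0.036 to 0.320.

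The difference also varied between libraries of 1 group. In OPA1+/+ at 3 months the difference was 0.242 in replicate 1 and -0.679 in replicate 4. In OPA1+/- at 3 months it was 0.156 in replicate 3 and -0.446 in replicate 2. In OPA1+/- at 6 months it ran from -0.008 in replicate 1 to -0.555 in replicate 3. The spread within each of these groups was wider than the range of OPA1+/+ at 6 months (0.849 to 0.911). In that group of 3 the activator and repressor scores showed no opposition, since replicate 3 had the highest value of both. The NR1D part did not oppose the activators throughout either: in OPA1+/+ at 3 months it was -0.083 and 0.047 in replicates 1 and 2 and -0.255 and -0.260 in replicates 3 and 4, where the activators were lowest. Over the 15 libraries, the deviations from group means of Nr1d1 and Arntl had a Pearson r of 0.606, and those of Per2 and Arntl one of -0.746, both given as descriptions.

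**Figure D3:**
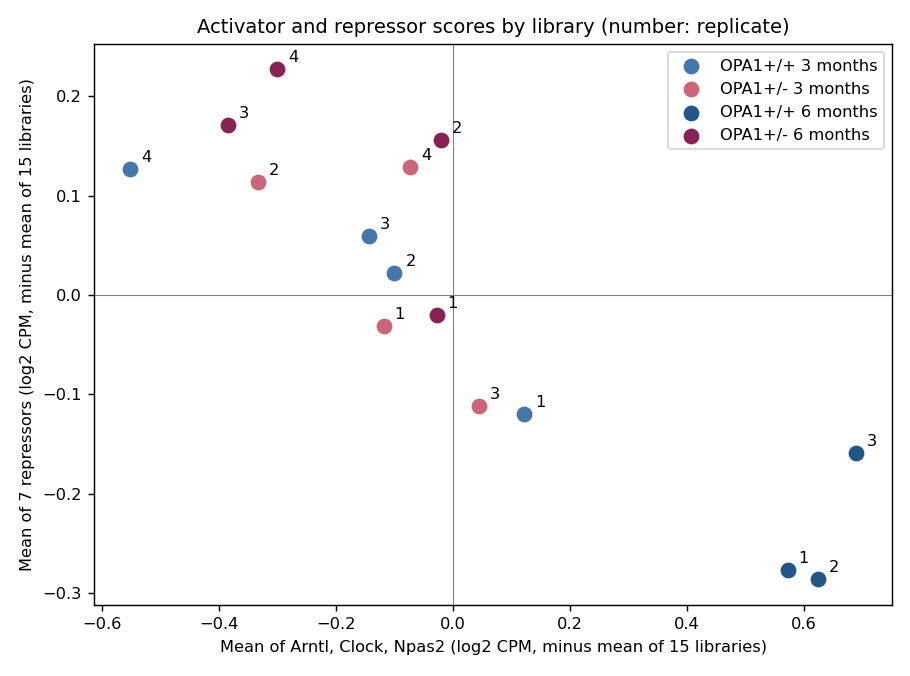
Mean of the 3 activators (x axis) against mean of the 7 repressors (y axis), both in log2 CPM minus the mean of 15 libraries, 1 point per library with its replicate number. The 3 OPA1+/+ libraries of 6 months lie alone at the lower right, with activator scores of 0.573 to 0.690, and the other 12 form a band without separation by group.

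The comparison of genotypes at 3 months asked whether the loop differed between young OPA1+/- and OPA1+/+ corneas. No member passed (0 of 10, with 0.00634% of all genes called in this comparison), and 5 of 10 fold changes were positive with a median of -0.02, against 0.00 over all genes. Nr1d1 had the largest difference, with means of 179 ± 38.8 CPM for OPA1+/+ against 249 ± 34.8 CPM for OPA1+/- (SD, n = 4 each) and a log2 fold change of 0.48 ± 0.16 (unadjusted p = 0.0122, adjusted p = 0.422, edgeR). Cry2 had 0.18 ± 0.08 (unadjusted p = 0.0344, adjusted p = 0.509, edgeR). For these 2 the unadjusted p was under 0.05, as for 1424 of 15770 genes. All 10 members had overlapping libraries between the genotypes, whereas 4.6% of all genes did not overlap (2.65% higher and 1.95% lower in OPA1+/-). Arntl (0.09 ± 0.30), Clock (0.02 ± 0.07) and Npas2 (0.01 ± 0.19) had values near 0.

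At 6 months 2 of 10 members passed, both higher in OPA1+/-, where 0.159% of all genes were called higher and 0.323% in either direction. Nr1d2 had 139 ± 10.9 CPM in OPA1+/+ (n = 3) and rose to 193 ± 18 CPM (n = 4) in OPA1+/-, which is 1.39-fold or 0.48 ± 0.07 on the log2 scale (adjusted p = 0.0119, edgeR). Per3 had 254 ± 7.49 and 323 ± 31.1 CPM, which is 1.27-fold or 0.34 ± 0.06 on the log2 scale (adjusted p = 0.0179, edgeR).

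The other 8 members did not pass at 6 months, although Arntl, Npas2, Per2 and Per1 had larger absolute fold changes than Nr1d2 and Per3. Mean Arntl was 48.3 ± 7.85 CPM in OPA1+/+ against 20.2 ± 2.45 CPM in OPA1+/- (-1.26 ± 0.30, adjusted p = 0.126, edgeR). Npas2 had 12.3 ± 1.71 and 6.63 ± 1.74 CPM (-0.90 ± 0.21, adjusted p = 0.0899, edgeR), and Clock had 330 ± 20 and 271 ± 24.4 CPM (-0.29 ± 0.08, adjusted p = 0.128, edgeR). On the repressor side Per2 had 47.3 ± 6 and 78.6 ± 7.56 CPM (0.73 ± 0.17, adjusted p = 0.1, edgeR) and Cry2 had 74.2 ± 2.88 and 91.3 ± 9.11 CPM (0.30 ± 0.08, adjusted p = 0.153, edgeR). Per1 (0.49 ± 0.29), Nr1d1 (0.29 ± 0.18) and Cry1 (-0.02 ± 0.17) had adjusted p of 0.602, 0.625 and 0.982 (edgeR). In 8 of 10 members the libraries of the genotypes did not overlap, a state found in 11.3% of all genes (5.71% higher, 5.62% lower): the 3 activators were lower and Per1, Per2, Per3, Cry2 and Nr1d2 higher in OPA1+/-. The median absolute log2 fold change was 0.41 over the members and 0.095 over all genes.

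The count of members called at 6 months depended on the fit. It was 6 with the DESeq2 Wald test, which added Arntl, Clock, Npas2 and Per2, and 5 when only the libraries of 6 months were fitted, which added Arntl (adjusted p = 0.000845), Npas2 and Per2. Calls over all genes rose as well, from 51 to 177 and 197 in these fits. The members' count was 1 without the pair of libraries with photoreceptor transcripts, where Nr1d2 passed and Per3 did not (log2 fold change 0.34, adjusted p = 0.0949) and 14 genes were called in all. Without OPA1+/+ replicate 1 (adjusted p = 0.0766), OPA1+/- replicate 2 (0.0525) or OPA1+/- replicate 3 (0.0825) of 6 months Per3 did not pass either, with log2 fold changes of 0.34 in each. The count was 0 without OPA1+/+ replicate 2, where Nr1d2 had 0.44 (adjusted p = 0.125) and Per3 had 0.32 (adjusted p = 0.171), and 2 genes were called in all.

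The age comparison in OPA1+/+ uses the same 3 libraries of 6 months as the genotype comparison at that age, so the values of both are not independent. With age Per3 fell from 327 ± 6.32 CPM (n = 4) to 254 ± 7.49 CPM (n = 3), or by 0.37 ± 0.06 on the log2 scale (adjusted p = 0.0343, edgeR). It was the 1 member of 10 to pass, where 0.019% of all genes were called lower, 0.0317% higher and 0.0507% in either direction. Clock had 0.38 ± 0.08 (adjusted p = 0.0604), Nr1d2 -0.34 ± 0.07 (adjusted p = 0.0846), Arntl 1.46 ± 0.30 (adjusted p = 0.113) and Per2 -0.77 ± 0.17 (adjusted p = 0.116), none of which passed (edgeR). Arntl and Clock were higher and Per2, Per3 and Nr1d2 lower at 6 months without overlap of libraries, 5 of 10 members against 8.14% of all genes (4.44% higher, 3.7% lower). Npas2 (0.47 ± 0.20), Per1 (-0.36 ± 0.29), Cry1 (-0.16 ± 0.17), Cry2 (-0.12 ± 0.08) and Nr1d1 (0.23 ± 0.17) overlapped.

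The Per3 call with age was lost in 6 of 15 fits without 1 library: OPA1+/+ replicate 2 (adjusted p = 0.0935) or 4 (0.059) of 3 months, OPA1+/+ replicate 2 (0.255) or 3 (0.0956) of 6 months, and OPA1+/- replicate 2 (0.0536) or 3 (0.0554) of 6 months. Its log2 fold change in these fits was -0.389 to -0.346. The count of members was 5 with the DESeq2 Wald test, and 3 with no filter on low counts, without OPA1+/+ replicate 1 of 3 months, without OPA1+/+ replicate 1 of 6 months, or without the pair of libraries with photoreceptor transcripts. Over all genes the calls in these fits were 117, 105, 13, 169 and 138, against 8 as reported.

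In OPA1+/- corneas no member passed with age (0 of 10, with 0.0824% of all genes called, 0.019% higher and 0.0634% lower), all 10 members overlapped between the ages, and 6.04% of all genes did not (2.9% higher, 3.14% lower). The widest differences were those of Npas2, from 9 ± 1.19 to 6.63 ± 1.74 CPM (log2 fold change -0.44 ± 0.20, adjusted p = 0.538, edgeR), and of Per1, from 106 ± 41.6 to 132 ± 20.6 CPM (0.32 ± 0.26, adjusted p = 0.766, edgeR). Nr1d2 had 0.19 ± 0.07 (adjusted p = 0.378, edgeR), and for this gene and Npas2 the unadjusted p was under 0.05, as for 1428 of 15770 genes. Arntl had 0.11 ± 0.29 and Per2 0.05 ± 0.15. The median absolute log2 fold change was 0.06 over the members and 0.084 over all genes.

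**Figure D4:**
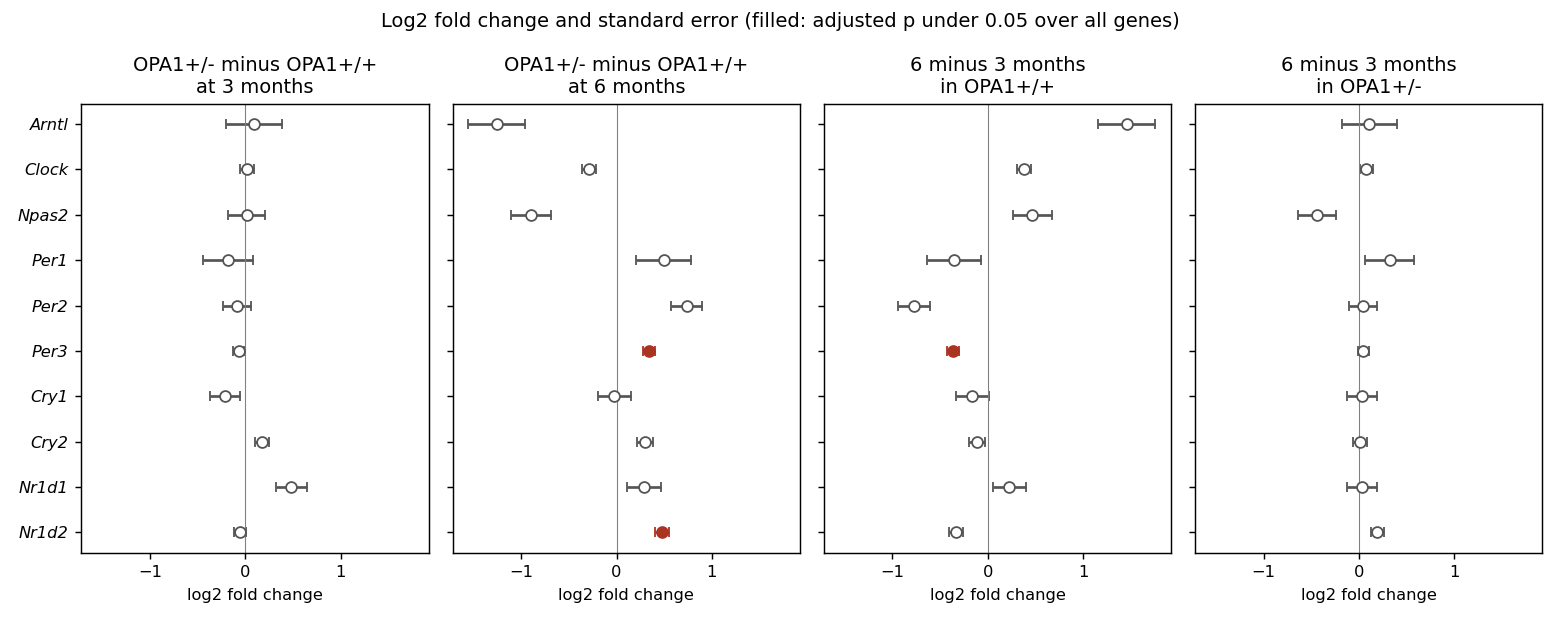
Log2 fold change and standard error of the 10 members in the comparisons of genotype at each age and of age in each genotype, with filled points where the adjusted p over all genes was under 0.05. Filled points are Per3 (0.34) and Nr1d2 (0.48) for genotype at 6 months and Per3 (-0.37) for age in OPA1+/+, and the activators lie opposite to Per2, Per3 and Nr1d2 in both of these comparisons.

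Whether the difference between genotypes changed between ages was tested with the interaction, and no member passed (0 of 10, with 0% of all genes called). The smallest adjusted p were those of Nr1d2 (0.53 ± 0.10 on the log2 scale, adjusted p = 0.112, edgeR) and Per3 (0.41 ± 0.08, adjusted p = 0.127, edgeR). Per2 had 0.82 ± 0.22 (adjusted p = 0.442), Arntl -1.35 ± 0.42 (adjusted p = 0.537), Npas2 -0.91 ± 0.28 (adjusted p = 0.513) and Clock -0.30 ± 0.10 (adjusted p = 0.563). Over all genes 1090 had an unadjusted p under 0.05. DESeq2 called 3 members (Per2, Per3 and Nr1d2) and 20 genes in all. The edgeR fit called Per3 and Nr1d2 with no filter on low counts or without OPA1+/- replicate 1 of 6 months, and Nr1d2 alone without OPA1+/+ replicate 1 of 6 months or without the pair with photoreceptor transcripts. A change of the genotype difference between ages was therefore not established by the planned test, and the part of time of day was not tested.

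Genes that act on the loop were taken from a list of 24 regulators, of which 23 were tested. At 6 months 2 were higher in OPA1+/- than in OPA1+/+ and none was lower: Ciart, a repressor of the ARNTL pair, and Bhlhe41, which competes for E-boxes. Over all genes 0.159% were called higher and 0.165% lower in this comparison. Ciart was at 6.09, 3.88 and 7.45 CPM in OPA1+/+ and at 12.7, 13.7, 18.7 and 13.7 CPM in OPA1+/- (1.34 ± 0.26 on the log2 scale, adjusted p = 0.0425, edgeR). At 3 months it was already at 6.32 to 13.4 and 11 to 15.1 CPM and did not pass. Bhlhe41 was at 25.7, 20.9 and 25.2 CPM in OPA1+/+ and at 39.0, 42.8, 66.5 and 52.7 CPM in OPA1+/- at 6 months (1.07 ± 0.18, adjusted p = 0.0262, edgeR). Ciart and Bhlhe41 did not overlap between genotypes at 6 months, like 5.71% of all genes that were higher without overlap. Without the pair of libraries with photoreceptor transcripts neither passed, with log2 fold changes of 1.38 (adjusted p = 0.157) and 1.123 (adjusted p = 0.107). Ciart did not pass with no filter on low counts (1.34, adjusted p = 0.0803), nor Bhlhe41 with only the 2 groups compared (1.07, adjusted p = 0.0994). Without 1 library, the Ciart call was lost in 11 of 15 fits (adjusted p up to 0.202, log2 fold change 1.118 to 1.558). The Bhlhe41 call was lost in 4 of 15, those without any of the 3 OPA1+/+ libraries or OPA1+/- replicate 4 of 6 months (up to 0.171, log2 fold change 0.98 to 1.124). The median log2 fold change of the 23 was 0.04, with 17 positive, and over all genes it was 0.0024, with 50.7% positive. No regulator passed in the other comparisons.

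Of 7 tested genes downstream of the loop, from a list of 8, Dbp and Tef were higher in OPA1+/- than in OPA1+/+ at 6 months. In this comparison 0.159% of all genes were called higher. The log2 fold change was positive in 5 of the 7 (median 0.096), against 50.7% of all genes. Dbp and Tef encode factors that bind the D-box, as does Hlf. Hlf did not pass, with means of 999 CPM in OPA1+/+ and 968 CPM in OPA1+/- (-0.05 ± 0.18, adjusted p = 0.963, edgeR). Tef was at 253, 229 and 246 CPM in OPA1+/+ and at 330, 344, 388 and 396 CPM in OPA1+/- (0.59 ± 0.07, adjusted p = 0.000622, edgeR), and Dbp was at 88.3 to 110 and 160 to 217 CPM (0.85 ± 0.12, adjusted p = 0.0156, edgeR). Neither gene overlapped between genotypes at that age, a state in which 5.71% of all genes were higher. Means at 3 months were 330 CPM (OPA1+/+) and 340 CPM (OPA1+/-) for Tef, and 150 and 177 CPM for Dbp. Between the ages in OPA1+/- the log2 fold change was 0.10 ± 0.06 for Tef and 0.07 ± 0.11 for Dbp. In OPA1+/+ Dbp had -0.555 ± 0.122 with age (adjusted p = 0.116, edgeR) and did not pass. The Dbp call was lost without the photoreceptor pair (log2 fold change 0.91, adjusted p = 0.0706) or OPA1+/+ replicate 2 of 6 months (0.76, adjusted p = 0.12), and the Tef call held in every setting run. With age in OPA1+/+, Tef fell (-0.44 ± 0.07, adjusted p = 0.0259, edgeR) and the cell cycle inhibitor Cdkn1a rose (0.37 ± 0.07, adjusted p = 0.0406, edgeR). Over all genes 0.019% were called lower and 0.0317% higher in that comparison. Without 1 library the Tef call was lost in 3 of 15 fits, those without OPA1+/+ replicate 2 of 3 months (adjusted p = 0.0639) or replicate 2 (0.25) or 3 (0.0845) of 6 months, and the Cdkn1a call in 9 of 15 (up to 0.255). The log2 fold changes in these fits were -0.46 to -0.40 for Tef and 0.33 to 0.38 for Cdkn1a. With only the 2 groups compared, neither Tef (-0.44, adjusted p = 0.0637) nor Cdkn1a (0.37, adjusted p = 0.108) passed. At 3 months, and with age in OPA1+/-, none of the 7 passed.

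Since Per1 also answers to hormones and to handling of tissue, 2 further lists were read beside it. None of 8 glucocorticoid-responsive genes, Per1 among them, passed in any comparison, where 0% to 0.323% of all genes were called. Their summed level was 713 to 927 raw CPM in OPA1+/+ and 494 to 698 raw CPM in OPA1+/- at 3 months, and 650 to 921 and 639 to 738 raw CPM at 6 months. For genotype at 3 months 0 of the 8 had a positive log2 fold change (median -0.208), against 50.9% of all genes. In OPA1+/+ at 6 months, replicate 1 had the sum of 921 raw CPM, and replicates 2 and 3 had 660 and 650. Of 15 tested immediate early genes, Jun and Btg2 were lower in OPA1+/- than in OPA1+/+ at 6 months. Jun had -0.35 ± 0.07 (adjusted p = 0.0325, edgeR) and Btg2 -0.51 ± 0.09 (adjusted p = 0.0179, edgeR), where 0.165% of all genes were called lower. None of the 15 passed elsewhere. Mean Btg2 was 29.1 (OPA1+/+) and 27.1 CPM (OPA1+/-) at 3 months, and 40 and 28.2 CPM at 6 months. Jun had 61.8, 68.6, 75.8 and 59.4 CPM in the same order. With age in OPA1+/+, 14 of the 15 had a positive log2 fold change (median 0.294), against 50.3% of all genes. For genotype at 6 months 6 of the 15 were positive (median -0.141), against 50.7%. Without the photoreceptor pair Jun did not pass (-0.37, adjusted p = 0.0631). Without 1 library the Jun call was lost in 5 of 15 fits and the Btg2 call in 2, with the highest adjusted p (0.239 and 0.171) in the fits without OPA1+/+ replicate 2 of 6 months. Their part in the levels of Per1 was not tested.

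The genes whose log2 CPM followed that of Arntl most closely over the 15 libraries, among 12209 ranked genes, were Kctd12 (Pearson r = 0.945, Spearman rho = 0.929), Pimreg (0.940 and 0.914), Polb (0.935 and 0.846), Dach1 (0.922 and 0.886) and Dapk1 (0.919 and 0.914). The OPA1+/+ libraries of 6 months stand apart among these points, and r of the deviations from group means was 0.802 to 0.914 for these 5. Most opposed were Thsd4 (r = -0.902), Bmp7 (-0.898), Plcg2 (-0.894), Ephx1 (-0.894) and Abracl (-0.873). For Nr1d1 the likeness was lower: Lrrc27 (r = 0.869), Ggta1 (0.854), Ndufb4 (0.833), Mapk1ip1l (0.814) and Maml2 (0.800) were most alike, and Gins4 (-0.825), Wdr90 (-0.819), Polh (-0.814), Sass6 (-0.792) and Kif24 (-0.790) most opposed. For the 5 genes most like Nr1d1, Spearman rho was 0.582 to 0.886 and r of the deviations from group means 0.589 to 0.873. For the 5 most opposed to it these were -0.832 to -0.668 and -0.758 to -0.605. All these genes were chosen as the extremes of many r, and the values are descriptions without a p.

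In the files' own coordinates, read as GRCm39, Arntl lies on chromosome 7 from 112806672 to 112913333 (plus strand), Per3 on chromosome 4 from 151088109 to 151129122 (minus strand) and Nr1d2 on chromosome 14 from 4230569 to 4265642 (plus strand). The strand of Nr1d2 is minus in the GRCm38.p6 promoter table and plus in these files.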

How the data were processed

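RNA of 15 mouse cornea libraries was measured by sequencing. Per the labels' protocols, total RNA was ribo-depleted and read as 75-base single reads from strand-specific libraries. The deposited values are raw counts per gene, which the authors made with featureCounts 2.0.1 on exons, strand setting 2 and GENCODE release 28, per the file headers. The submitters' processing notes name mm10 and DESeq2. Of 52044 nuclear identifiers shared with release 21 (GRCm38), 2.8% had the same start and end, so coordinates were read as GRCm39. No source used here names the aligner. Symbols matched 52081 of 55357 identifiers (94.1%).

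CPM are counts scaled to a TMM-adjusted library total of 1000000, and raw CPM use the total as it is. Genes were kept by filterByExpr. One edgeR 4.0.16 quasi-likelihood model (R 4.3.3) with a mean for each of the 4 groups used all 15 libraries and had 11 residual degrees of freedom. Adjusted p are Benjamini-Hochberg values over 15770 genes (threshold 0.05), and the SE is the absolute log2 fold change over the square root of F. Scores used log2 CPM with a prior count of 2. A count of 0 allows up to 3 counts, 0.165 to 0.257 CPM, and no member was at 0. The procedure was tested on simulated data. Alternatives were DESeq2 1.42.0 size factors, its Wald test, no filter, the replicate block, only the 2 groups compared, leaving out each library, leaving out libraries whose photoreceptor transcripts exceeded 5 times the median, and a prior count of 0.5 for the scores. The named genes are all members, Opa1, up to 6 passing genes per list and comparison, and the 5 genes most like and most opposed to Arntl and Nr1d1 with a mean of at least 1 CPM. Jun and Btg2 were named after their values were seen. Members and lists were chosen with earlier results of these data known. Within each group, no 2 libraries agreed within sampling noise.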

Additional observations from a re-analysis of the deposited data

Results flagged for a closer look

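Per2 in OPA1+/- replicate 1 of 6 months was at 67.3 CPM, apart from the 82.1 to 82.7 CPM of the other 3 libraries of its group. Nr1d2 in OPA1+/- replicate 3 of 3 months was at 153 CPM, below the 172 to 176 CPM of the rest of its group. Both were picked out because the gap to the nearest library took up nearly the whole range of the group. Chance picks out about 1 in 20 groups, and 30 sets of a member and a group of 4 were examined.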

How the results depend on the processing

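Group means of activators minus repressors kept their sign with another prior count, other size factors or any library of the group left out. The sign is relative to the mean of all 15 libraries, which OPA1+/+ at 6 months raises. Scores were not centred again when a library was left out. A negative sign in the other groups therefore depends in part on that group. The group means ran from 0.85 to 0.881 in OPA1+/+ and from -0.42 to -0.238 in OPA1+/- at 6 months. At 3 months they ran from -0.335 to -0.028 in OPA1+/+ and from -0.245 to -0.044 in OPA1+/-. With another prior count or other size factors the means moved by less than 1 SD. Leaving out 1 of 3 or 4 libraries cannot move a mean by 1 SD, so those fits set no such limit. Counts of members called changed with the setting in part of the comparisons. For genotype at 6 months the count of 2 became 6 with the DESeq2 Wald test, 5 with only the 2 groups compared, 1 without the pair with photoreceptor transcripts, and 0 to 3 without 1 library. For age in OPA1+/+ the count of 1 became 5 with DESeq2, 3 with no filter, 0 with the replicate block, 3 without that pair, and 0 to 3 without 1 library. For the interaction the count of 0 became 3 with DESeq2, 2 with no filter, 1 without that pair, and 0 to 2 without 1 library. It stayed at 0 for genotype at 3 months and age in OPA1+/- in all settings run. The cause was not tested.

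Fold changes near 0 changed sign. Without the photoreceptor pair, Arntl for genotype at 3 months had -0.009 and Cry1 for age in OPA1+/+ had 0.052. Without 1 library, the ranges for genotype at 3 months were -0.117 to 0.288 for Arntl, -0.053 to 0.08 for Clock and -0.135 to 0.189 for Npas2. Cry1 had -0.238 to 0.116 for genotype at 6 months, -0.305 to 0.055 for age in OPA1+/+, -0.045 to 0.094 for age in OPA1+/- and -0.024 to 0.339 for the interaction. For age in OPA1+/- they were -0.088 to 0.314 for Arntl, -0.021 to 0.131 for Per2, -0.009 to 0.102 for Per3, -0.05 to 0.077 for Cry2 and -0.048 to 0.121 for Nr1d1. None of these passed in any of those fits.

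Replicate numbers did not pair the libraries: 2 of 21 same-numbered pairs had a correlation of deviations over 0.1 (-0.139 to 0.232), and 3 of 15 libraries correlated best with their own number. With the replicate block, members called were 2 for genotype at 6 months and 0 in every other comparison. Calls lost with the block were Per3 (-0.35, adjusted p = 0.135), Tef (-0.414, 0.0739) and Cdkn1a (0.392, 0.0701) for age in OPA1+/+, Bhlhe41 for genotype at 6 months (1.035, 0.0647) and Opa1 for genotype at 3 months (-0.411, 0.0514). Over all genes, calls ranged from 2 to 197 for genotype at 6 months (51 as reported), from 0 to 169 for age in OPA1+/+ (8), from 1 to 83 for age in OPA1+/- (13), from 0 to 45 for genotype at 3 months (1) and from 0 to 20 for the interaction (0). Depth limits Npas2 and Cry1 most.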
